A study of Homo sapiens with 12 samples.

Results

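The mTOR complex components and regulators described here are 10 genes, chosen by name from the 57353 genes listed in the count table: MTOR, RPTOR, MLST8, RICTOR, DEPTOR, AKT1S1, TSC1, TSC2, RHEB and RPS6KB1. All 10 were in the table and all 10 passed the filter on low counts, which left 12998 genes to test. The RNA came from MOLM-13, an established line of human AML cells with a FLT3-ITD allele, whose genotype the labels give as WT without further detail. Cells were kept for 15 hr with vehicle (DMSO) or with 3 nM quizartinib, a FLT3 inhibitor, in RPMI medium or in hBMSC-CM, which is RPMI mixed with medium from cultures of the human bone marrow stromal line HS-5. Each of the 4 groups had 3 libraries, all from the same cell line. The study's reporting checklist calls its replicates biological, and the labels do not say whether these libraries came from separate cultures, so the p-values measure the spread between libraries of 1 line. The comparisons ask how FLT3 inhibition changed the mRNA of the mTOR machinery, and whether stromal conditioned medium altered that change.

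mTOR is a serine/threonine kinase that links growth factor and amino acid supply to protein synthesis, and it works in complexes that are told apart by their partner subunits. mTORC1 contains RPTOR, which brings in substrates, and mTORC2 contains RICTOR, whereas MLST8 belongs to both. The small GTPase RHEB switches mTORC1 on at the lysosome, and the TSC1-TSC2 complex switches RHEB off. DEPTOR binds mTOR and AKT1S1 binds RPTOR, and both hold the kinase back, whereas RPS6KB1 encodes the S6 kinase that mTORC1 phosphorylates. In FLT3-mutant AML the receptor feeds this pathway through PI3K and AKT. The libraries measured mRNA levels, and kinase activity and protein levels were not measured in them.

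The libraries held between 19966546 and 31546104 counts. Levels are given as CPM, the count of a gene relative to the total count of its library, scaled by TMM, and a gene with no count in a library could still be at up to 0.0951 to 0.150 CPM. Mitochondrially encoded genes took 0.683% to 0.790% of the counts with vehicle and 1.02% to 1.10% with quizartinib in RPMI, and 0.458% to 0.613% and 0.683% to 0.947% in hBMSC-CM. All 10 myeloid markers of the cell line were detected in every group. Of 16 stromal markers, between 7 and 8 were at 0 in every library of a group, among them COL3A1, COL5A1, THY1, LUM, DCN, POSTN and IL6. The summed level of all 16 was 8.0 to 8.68 CPM with vehicle and 16.8 to 21.0 CPM with quizartinib in RPMI, and 5.74 to 7.36 CPM and 10.2 to 11.3 CPM in hBMSC-CM, so at the same treatment it was lower in the conditioned medium. In that order of groups, ACTA2 averaged 4.11, 5.76, 2.76 and 4.05 CPM. TAGLN averaged 2.55, 6.19, 2.4 and 4.39 CPM, and COL1A1 0.177, 4.61, 0.225 and 0.992 CPM. Single markers were higher in the conditioned medium, such as COL1A1 with vehicle. PDGFRB was so with vehicle (0.358 against 0.275 CPM) and with quizartinib (0.76 against 0.487 CPM). The part of these shares and levels in the results below was not tested. The labels name only MOLM-13 cells, and the paper states that the HS-5 medium was sterile-filtered. In these bulk libraries, fewer MOLM-13 cells in a given state and less RNA per cell cannot be told apart.

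In a GENCODE annotation of GRCh38, the kinase gene MTOR lies at chr1:11106535-11262556, RPTOR at chr17:80544819-80966371, RICTOR at chr5:38937920-39074402 and RHEB at chr7:151466012-151520120. MLST8 at chr16:2204248-2209453 and TSC2 at chr16:2047967-2089491 lie near each other, TSC1 is at chr9:132891348-132946874, AKT1S1 at chr19:49869033-49878459 and RPS6KB1 at chr17:59893046-59950574. DEPTOR is on chromosome 8. Counts cover the exons of each whole gene. TSC2 shares 784 exonic bases with PKD1 on the opposite strand, MLST8 shares 201 with BRICD5, and AKT1S1 shares 151 with TBC1D17 on the opposite strand. Use of strand in counting is not given in the sources used here, so reads in these stretches are uncertain.

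**Figure D1:**
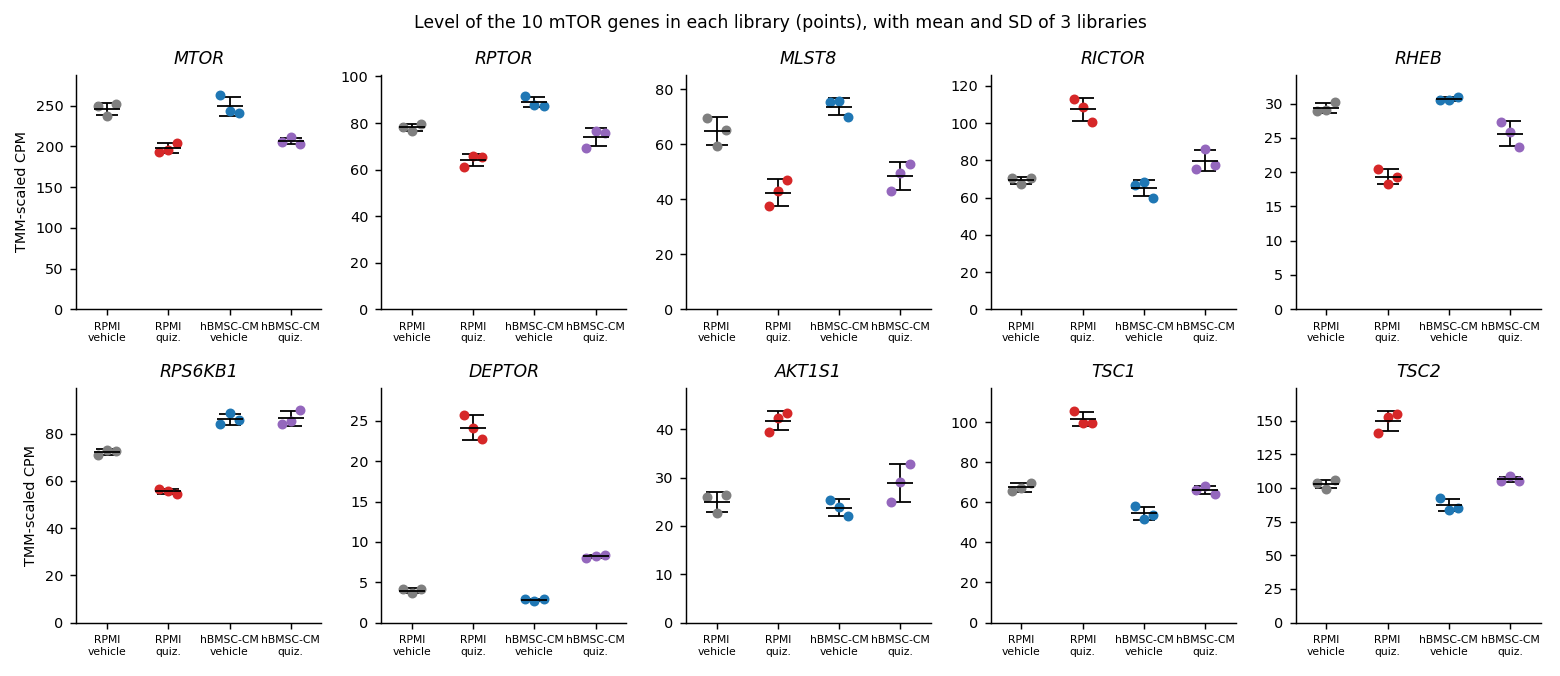
Level of each gene in every library, in TMM-scaled CPM on axes that start at 0, with the mean and SD of 3 libraries per group (quiz., quizartinib). MTOR, RPTOR, MLST8, RHEB and RPS6KB1 are lower with quizartinib in RPMI, the other 5 genes are higher, and DEPTOR goes from 3.97 to 24.2 CPM on average.

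Quizartinib changed the mRNA of all 10 genes in RPMI. The kinase MTOR, its mTORC1 partner RPTOR, the shared subunit MLST8, the activator RHEB and the substrate kinase RPS6KB1 fell. The mRNAs of the inhibitors DEPTOR, AKT1S1, TSC1 and TSC2 rose, and so did that of the mTORC2 subunit RICTOR. These are 5 genes higher and 5 lower, in a comparison that called 79.3% of all genes tested (40.1% higher and 39.2% lower), so a count of 10 out of 10 is little above the background. No gene's vehicle and quizartinib libraries overlapped in RPMI, as was the case for 81.1% of all genes. The median absolute log2 fold change was 0.60 over the 10 genes and 0.48 over all genes tested. Rises and falls here and below are in scaled shares of a library's counts, and amounts per cell were not measured. In a separate polysome experiment, the paper reports lower RNA yields from quizartinib-treated cells, in whole lysates and more so in polysomes. Whether the genes given as higher also rose per cell was not tested.

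In hBMSC-CM the same 5 genes rose and 4 of the same 5 fell, whereas RPS6KB1 did not change detectably. This comparison called 67.1% of all genes tested, 33.4% higher and 33.7% lower. The libraries did not overlap for 8 of the 10 genes, against 68.4% of all genes, and the median absolute log2 fold change was 0.27 over the 10 genes and 0.30 over all genes. The difference between the drug responses in the 2 media, tested as an interaction, was called for 7 of the 10 genes, 2 higher and 5 lower, against 45.2% of all genes, 26.1% higher and 19.2% lower. The 7 were RICTOR, DEPTOR, AKT1S1, TSC1, TSC2, RHEB and RPS6KB1, and for each of them the response was nearer to 0 in hBMSC-CM. As a share of the response in RPMI, the response in hBMSC-CM had a median of 49.9% over the 10 genes, and of 54.4% over the 10307 genes called in RPMI.

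**Figure D2:**
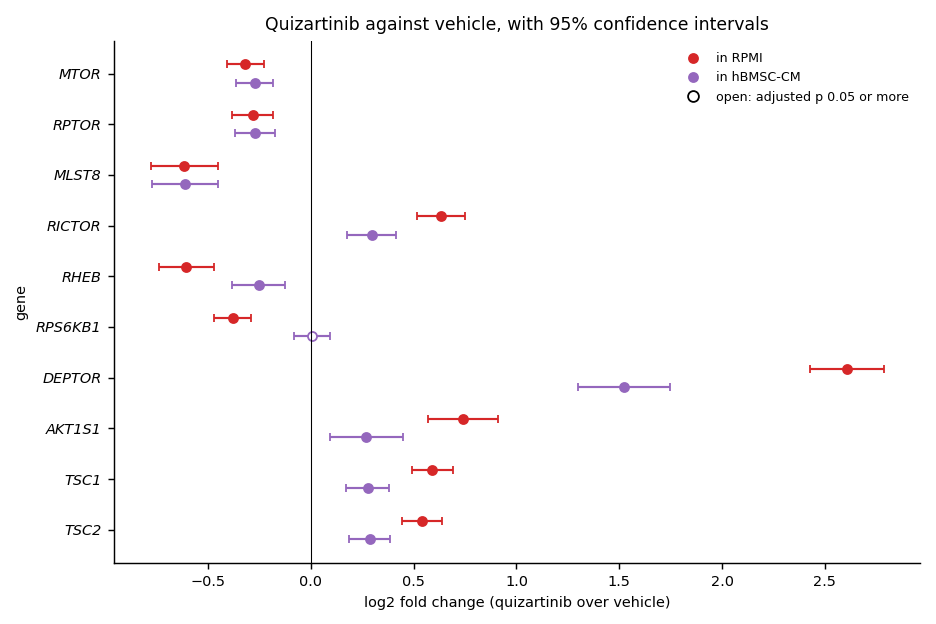
Log2 fold change of quizartinib over vehicle for each gene in RPMI and in hBMSC-CM, with 95% confidence intervals from the edgeR fit, where an open point did not pass the threshold. The responses of MTOR, RPTOR and MLST8 lie close together in the 2 media, and the responses of the other 7 genes are nearer to 0 in hBMSC-CM.

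DEPTOR, the mTOR-binding inhibitor, had the largest response of the 10. In RPMI it stood at 4.14, 3.68 and 4.10 CPM with vehicle and at 25.7, 24.1 and 22.7 CPM with quizartinib. In hBMSC-CM it stood at 2.90, 2.70 and 2.895 CPM with vehicle and at 7.99, 8.21 and 8.39 CPM with quizartinib. The 4 groups did not overlap, with the RPMI quizartinib libraries highest and the hBMSC-CM vehicle libraries lowest. The rise was 6.09-fold in RPMI (log2 fold change 2.61 ± 0.086, SE, adjusted p = 7.26e-17) and 2.875-fold in hBMSC-CM (1.52 ± 0.11, adjusted p = 9.37e-11). Of the 12998 genes tested, 65 rose more than DEPTOR in RPMI and 194 did so in hBMSC-CM. The response was smaller in hBMSC-CM by 1.08 ± 0.15 on the log2 scale (interaction, adjusted p = 3.51e-06).

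AKT1S1, which encodes the RPTOR-binding inhibitor PRAS40, stood at 25.9, 22.6 and 26.5 CPM with vehicle and at 39.5, 42.3 and 43.4 CPM with quizartinib in RPMI. Its hBMSC-CM libraries held 25.4, 23.9 and 22.1 CPM with vehicle and 24.9, 29.1 and 32.8 CPM with quizartinib. The RPMI groups were well apart, but in hBMSC-CM the lowest quizartinib library was below the highest vehicle library. Its log2 fold change was 0.74 ± 0.082 in RPMI (adjusted p = 4.43e-08) and 0.27 ± 0.086 in hBMSC-CM (adjusted p = 0.00905). Without replicate 3 of the hBMSC-CM quizartinib group the latter was 0.18 (adjusted p = 0.0780) and was no longer called. With each library left out in turn, the log2 fold change in hBMSC-CM lay between 0.18 and 0.37. The interaction was −0.47 ± 0.12 (adjusted p = 0.00289). Its neighbour TBC1D17, which shares 151 exonic bases with it, went from 15.2 ± 1.28 to 50.0 ± 1.64 CPM (SD, n = 3) in RPMI and from 12.7 ± 0.783 to 22.7 ± 3.10 CPM in hBMSC-CM, and the part of these reads in the AKT1S1 count was not tested.

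The TSC complex is the brake upstream of RHEB, with TSC2 as the GTPase-activating subunit and TSC1 as the subunit that stabilises it. TSC1 held 65.6, 67.1 and 69.8 CPM with vehicle and 105.4, 99.6 and 99.6 CPM with quizartinib in RPMI, and 58.0, 51.8 and 53.8 CPM and 65.98, 68.3 and 64.2 CPM in hBMSC-CM. TSC2 held 103.3, 99.6 and 105.8 CPM with vehicle and 141.0, 152.7 and 155.2 CPM with quizartinib in RPMI, and 92.2, 83.6 and 85.4 CPM and 105.5, 108.7 and 105.0 CPM in hBMSC-CM. For both genes the quizartinib libraries were above the vehicle libraries in each medium. In RPMI, TSC1 rose by 0.59 ± 0.048 on the log2 scale (adjusted p = 2.79e-10) and TSC2 by 0.54 ± 0.047 (adjusted p = 8.18e-10). In hBMSC-CM the rises were 0.28 ± 0.050 (adjusted p = 5.54e-05) and 0.29 ± 0.048 (adjusted p = 2.16e-05). The interaction was −0.31 ± 0.069 for TSC1 (adjusted p = 0.000838) and −0.25 ± 0.067 for TSC2 (adjusted p = 0.00391). Without a filter on low counts the interaction of TSC2 was −0.18 (adjusted p = 0.0648). PKD1, which overlaps the end of TSC2, was at 97.7 ± 9.24 and 88.7 ± 5.66 CPM with vehicle and quizartinib in RPMI (SD, n = 3). In hBMSC-CM it was at 97.5 ± 4.49 and 77.1 ± 4.4 CPM. The part of reads from the shared stretch in the TSC2 count was not tested.

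RHEB, the GTPase that activates mTORC1, moved against its brake. It stood at 28.9, 29.1 and 30.2 CPM with vehicle and at 20.5, 18.2 and 19.3 CPM with quizartinib in RPMI. In hBMSC-CM it stood at 30.5, 30.5 and 31.0 CPM with vehicle and at 27.4, 25.9 and 23.7 CPM with quizartinib. The quizartinib libraries were the lower ones in both media, and those in RPMI were the lowest of the 12. The log2 fold change was −0.61 ± 0.063 in RPMI (adjusted p = 1.83e-08) and −0.25 ± 0.062 in hBMSC-CM (adjusted p = 0.00114), with an interaction of 0.35 ± 0.089 (adjusted p = 0.00281). RHEBP2, a processed copy that could take or give RHEB reads, held between 11 and 42 counts per library.

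RPS6KB1 was the member whose drug response was not detected in hBMSC-CM. The S6 kinase it encodes carries the mTORC1 signal to the ribosome. In RPMI it held 70.95, 73.2 and 72.6 CPM with vehicle and 56.5, 55.5 and 54.5 CPM with quizartinib, a log2 fold change of −0.38 ± 0.043 (adjusted p = 7.32e-08). In hBMSC-CM it held 84.0, 88.6 and 85.8 CPM with vehicle and 83.9, 85.5 and 90.0 CPM with quizartinib. There the groups overlapped, and the log2 fold change of 0.0057 had a 95% confidence interval from −0.082 to 0.094 (adjusted p = 0.913), which leaves out the RPMI value. Its sign changed with the scaling and the filter, and with library sizes alone it was 0.11 (adjusted p = 0.0306). The interaction was 0.39 ± 0.061 (adjusted p = 2.51e-05). The paralog RPS6KB2 was at 72.5 and 63.0 CPM on average with vehicle and quizartinib in RPMI, and at 71.3 and 62.0 CPM in hBMSC-CM.

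RICTOR, the defining subunit of mTORC2, rose although the other core subunits fell. Its libraries held 70.5, 67.3 and 70.3 CPM with vehicle and 113.1, 108.6 and 100.8 CPM with quizartinib in RPMI, and 66.8, 68.1 and 60.03 CPM and 75.4, 86.3 and 77.8 CPM in hBMSC-CM. Quizartinib libraries were above vehicle libraries in each medium. The log2 fold change was 0.63 ± 0.057 in RPMI (adjusted p = 1.47e-09) and 0.29 ± 0.058 in hBMSC-CM (adjusted p = 0.000145), and the interaction was −0.34 ± 0.081 (adjusted p = 0.00183).

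MTOR, RPTOR and MLST8, which form the core of mTORC1, fell with quizartinib in both media. MTOR held 249.2, 238.0 and 251.7 CPM with vehicle and 192.7, 195.6 and 204.5 CPM with quizartinib in RPMI, and 262.6, 244.0 and 241.6 CPM and 205.7, 211.0 and 203.2 CPM in hBMSC-CM. RPTOR held 78.2, 76.4 and 79.7 CPM and 61.2, 66.01 and 65.3 CPM in RPMI, and 91.6, 87.9 and 87.5 CPM and 69.5, 76.5 and 75.5 CPM in hBMSC-CM. MLST8 held 69.6, 59.5 and 65.4 CPM and 37.4, 42.9 and 47.0 CPM in RPMI, and 75.5, 75.7 and 70.1 CPM and 43.1, 49.4 and 52.9 CPM in hBMSC-CM. For these 3 genes every quizartinib library was below every vehicle library of its medium. The log2 fold changes in RPMI and hBMSC-CM were −0.32 ± 0.043 and −0.27 ± 0.043 for MTOR, −0.28 ± 0.047 for RPTOR in RPMI and −0.27 ± 0.047 in hBMSC-CM, and −0.62 ± 0.078 and −0.61 ± 0.077 for MLST8, with adjusted p from 3.12e-07 to 3.28e-05. The interaction was not called for any of them, and its 95% confidence interval ran from −0.081 to 0.17 for MTOR, from −0.13 to 0.15 for RPTOR and from −0.22 to 0.23 for MLST8. Of the 10 genes, these 3 had responses in hBMSC-CM of 85.6%, 95.7% and 99.3% of those in RPMI, and the other 7 had between −1.51% and 58.5%. Under other scalings and without single libraries the interaction of RPTOR and of MLST8 changed sign around 0.

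**Figure D3:**
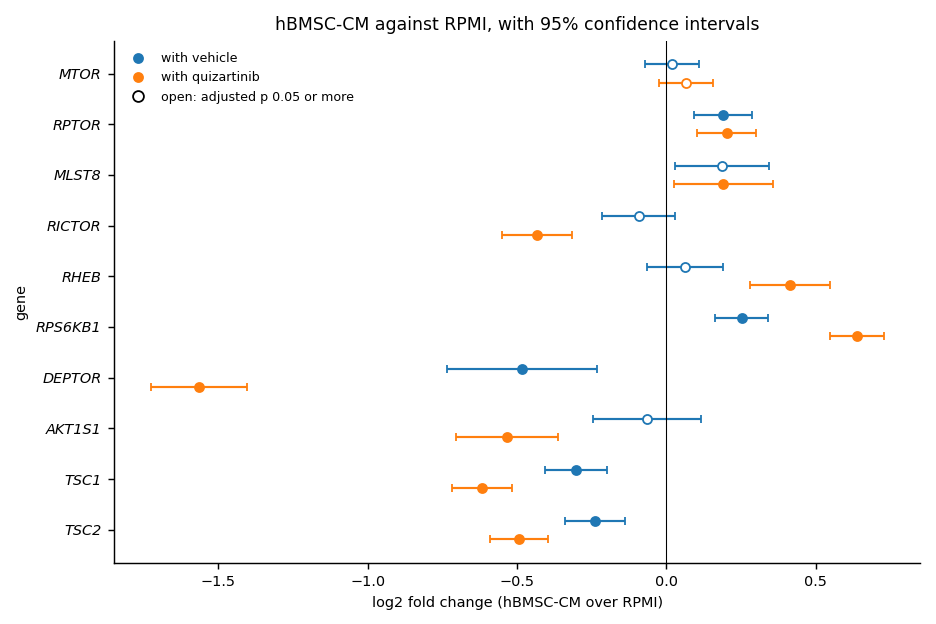
Log2 fold change of hBMSC-CM over RPMI for each gene with vehicle and with quizartinib, with 95% confidence intervals from the edgeR fit, where an open point did not pass the threshold. With quizartinib, DEPTOR lies at −1.57 and RPS6KB1 at 0.64, and both are nearer to 0 with vehicle.

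Conditioned medium alone, compared with RPMI in vehicle-treated cells, changed 5 of the 10 genes. RPS6KB1 and RPTOR were higher and DEPTOR, TSC1 and TSC2 were lower, in a comparison that called 32.1% of all genes tested, 16.6% higher and 15.5% lower. The libraries did not overlap for 7 of the 10 genes, against 44.6% of all genes. The log2 differences were 0.25 ± 0.042 for RPS6KB1 (adjusted p = 0.000121), 0.19 ± 0.046 for RPTOR (adjusted p = 0.00361), −0.48 ± 0.12 for DEPTOR (adjusted p = 0.00414), −0.30 ± 0.049 for TSC1 (adjusted p = 8.71e-05) and −0.24 ± 0.048 for TSC2 (adjusted p = 0.000644). MLST8 had a difference of 0.19 ± 0.075 (adjusted p = 0.0641), RHEB of 0.062 ± 0.061 (adjusted p = 0.469), MTOR of 0.019 ± 0.043 (adjusted p = 0.772), AKT1S1 of −0.063 ± 0.087 (adjusted p = 0.613) and RICTOR of −0.093 ± 0.058 (adjusted p = 0.234), and none of these passed the threshold. MLST8 passed it under 7 of 22 alternative settings, with adjusted p over all 22 between 0.00775 and 0.264.

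Among quizartinib-treated cells, hBMSC-CM and RPMI gave different levels for 9 of the 10 genes, with 4 higher and 5 lower in hBMSC-CM, against 69.8% of all genes tested, 35.5% higher and 34.3% lower. RPS6KB1, RHEB, RPTOR and MLST8 were higher in hBMSC-CM, and DEPTOR, TSC1, AKT1S1, TSC2 and RICTOR were lower. The libraries did not overlap for 8 of the 10, against 71.5% of all genes. This comparison shares the RPMI quizartinib libraries with the drug response in RPMI and the hBMSC-CM quizartinib libraries with the drug response in hBMSC-CM, so its signs are not independent of either response. DEPTOR was lower by 1.57 ± 0.077 on the log2 scale (adjusted p = 1.70e-13), and 94 of the 12998 genes tested were lower still. RPS6KB1 was higher by 0.64 ± 0.043 (adjusted p = 3.35e-11) and RHEB by 0.41 ± 0.064 (adjusted p = 8.80e-06). TSC1, AKT1S1, TSC2 and RICTOR had differences of −0.62 ± 0.048, −0.53 ± 0.081, −0.49 ± 0.047 and −0.43 ± 0.056. RPTOR was higher by 0.20 ± 0.047 (adjusted p = 0.000801). The difference of MLST8 was 0.19 ± 0.080 (adjusted p = 0.0389), and it was lost under 8 of 22 alternatives, with 0.099 (adjusted p = 0.281) without replicate 1 of the RPMI quizartinib group and also without replicate 3 of RPMI vehicle, replicate 2 of RPMI quizartinib, replicate 2 of hBMSC-CM vehicle or replicates 2 or 3 of hBMSC-CM quizartinib. MTOR, with 0.065 ± 0.043 (adjusted p = 0.188), was not called. It was called without a filter on low counts, with 0.14 (adjusted p = 0.0117), and with the filterByExpr filter, with 0.10 (adjusted p = 0.0439), and its adjusted p under the other alternatives lay between 0.132 and 0.713.

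Ratios of counts within a library do not depend on how libraries are scaled to each other. The ratio of RPTOR to RICTOR, the defining subunits of the complexes, was 1.11, 1.135 and 1.135 with vehicle in RPMI and 0.541, 0.608 and 0.648 with quizartinib. In hBMSC-CM it was 1.37, 1.29 and 1.46 with vehicle and 0.921, 0.887 and 0.972 with quizartinib. The order of the groups was hBMSC-CM vehicle, RPMI vehicle, hBMSC-CM quizartinib and RPMI quizartinib, with no overlap between neighbours. The ratio of RHEB to TSC2 had the same order, with 0.280, 0.293 and 0.286 with vehicle and 0.145, 0.119 and 0.124 with quizartinib in RPMI, and 0.331, 0.365 and 0.363 and 0.260, 0.238 and 0.226 in hBMSC-CM. On the log2 scale quizartinib moved the RPTOR to RICTOR ratio by −0.92 in RPMI and −0.57 in hBMSC-CM, and the RHEB to TSC2 ratio by −1.15 and −0.55. Each of these 4 differences had a two-sided exact permutation p of 0.1, the smallest that 3 against 3 libraries allow, and 0.12 after adjustment over the 12 ratio comparisons, so this test cannot reach 0.05 for a single ratio. The ratio of TSC2 to TSC1 was 1.52 ± 0.046, 1.48 ± 0.12, 1.60 ± 0.016 and 1.61 ± 0.023 (SD, n = 3) in RPMI vehicle, RPMI quizartinib, hBMSC-CM vehicle and hBMSC-CM quizartinib. Its vehicle and quizartinib libraries overlapped in both media (exact permutation p = 0.8 and 0.5, adjusted 0.8 and 0.545). At the same treatment its hBMSC-CM libraries lay above its RPMI libraries, by 0.067 with vehicle and 0.13 with quizartinib on the log2 scale (exact permutation p = 0.1 for each, adjusted 0.12).

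**Figure D4:**
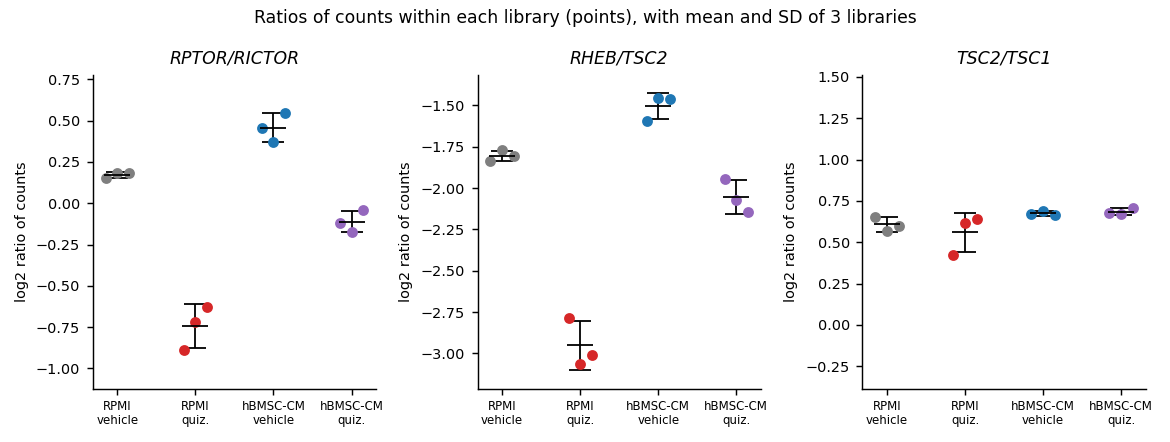
Log2 ratio of counts within each library for RPTOR over RICTOR, RHEB over TSC2 and TSC2 over TSC1, with mean and SD of 3 libraries per group (quiz., quizartinib), on axes of equal span. The first pair of ratios is lowest in the RPMI quizartinib libraries, and the TSC2 to TSC1 ratio stays between 0.42 and 0.71 in all 12.

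Per kilobase of annotated exon, MTOR had the highest level of the 10 genes in each group, with 18.4 ± 0.544 CPM per kb in RPMI vehicle, 14.8 ± 0.461 in RPMI quizartinib, 18.7 ± 0.859 in hBMSC-CM vehicle and 15.5 ± 0.298 in hBMSC-CM quizartinib (SD, n = 3). MLST8 came after it in 3 groups, with 14.9 ± 1.17, 9.73 ± 1.11 and 16.9 ± 0.724 CPM per kb, and its level of 11.1 ± 1.14 in hBMSC-CM quizartinib overlapped that of RPS6KB1, 11.2 ± 0.411. DEPTOR was the lowest in RPMI vehicle, hBMSC-CM vehicle and hBMSC-CM quizartinib, with 1.51 ± 0.0976, 1.08 ± 0.0429 and 3.12 ± 0.0762 CPM per kb. In RPMI quizartinib it reached 9.21 ± 0.573, the third highest level, whose libraries overlapped those of MLST8 and lay above those of RICTOR (7.99 ± 0.463). From RICTOR downward in that group, each neighbour in the order of RICTOR, TSC2 (7.29), AKT1S1 (7.28) and RPS6KB1 (7.21) overlapped the next, as did RPTOR (6.23), TSC1 (5.77) and RHEB (5.47). In RPMI vehicle, RICTOR and TSC2 overlapped, as did AKT1S1 and TSC1, and the other neighbours in the order did not. In hBMSC-CM, RHEB and RPTOR overlapped in both groups, as did TSC2 and AKT1S1, and RICTOR and TSC2 overlapped with vehicle. The order rests on the length used. With the longest transcript, 25 of the 40 ranks moved, MLST8 passed MTOR in both vehicle groups (30.6 against 27.3 CPM per kb in RPMI), and DEPTOR in RPMI quizartinib had rank 9 (9.41), while it stayed lowest in the other 3 groups.

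Sequence upstream of the start site is shown for 2 genes that moved in opposite directions, to place the motif matches found there. RefSeq promoter windows on GRCh38 were given for 7 of the 10 genes, MTOR, RPTOR, RICTOR, RHEB, TSC1, TSC2 and RPS6KB1. The 250 bases before each start were searched on both strands for the E-box CACGTG, the forkhead site GTAAACA, the ETS site CCGGAAG and the letters GCGCATG, of which the last 2 were chosen after the sequences were seen. Over 35116 RefSeq windows of that length, which include several starts of some genes, these were found in 6.34%, 2.98%, 8.52% and 3.77%. TSC2, which rose with quizartinib, held an E-box at position −114 from its start and an ETS match at −17. The window of its other RefSeq start, which lies downstream and overlaps the first, held no E-box and ETS matches at −234 and −216 from that start. The match at −234 is the same site as the match at −17 in the first window. RPS6KB1, which fell in RPMI, held GCGCATG at −179, −136 and −95. TSC1 held an ETS match at −129, and the windows of MTOR, RPTOR, RICTOR and RHEB held none of the 4. The lines below give the part of each window that overlaps no annotated exon, on the plus strand, with the motif matches that lie wholly within it in capitals, for TSC2 at chr16:2047867-2047966 and for RPS6KB1 at chr17:59892946-59893045. The ETS matches of TSC2 and the GCGCATG of RPS6KB1 at −179 lie outside these parts or across their edge and are not marked. A match is a description of letters, and binding was not measured.
TSC2: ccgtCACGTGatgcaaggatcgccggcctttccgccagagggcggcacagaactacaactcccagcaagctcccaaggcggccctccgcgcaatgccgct
RPS6KB1: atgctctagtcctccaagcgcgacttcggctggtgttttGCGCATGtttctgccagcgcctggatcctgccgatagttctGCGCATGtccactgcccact

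Beyond the 10 genes, the wider pathway was followed in lists written from general knowledge, without a test of any list as a whole. The shares of all tested genes to read their counts against are, for the drug response in RPMI, 40.1% higher and 39.2% lower, and for that in hBMSC-CM 33.4% higher and 33.7% lower. Of the other mTORC2 subunits and the TTT factors, which fold and assemble mTOR, 5 of 6 tested genes fell with quizartinib in RPMI and none rose. TTI1 went from 71.6 to 25.0 CPM (log2 fold change −1.52 ± 0.051, adjusted p = 8.79e-17) and TELO2 from 66.5 to 28.9 CPM (−1.21 ± 0.078, adjusted p = 6.99e-12). In hBMSC-CM the count was again 5 of 6, or 3 of 6 with upper-quartile factors or library sizes alone, and TTI1 fell by 0.80 and TELO2 by 0.55 on the log2 scale. The median log2 fold change of the list was −0.72 in RPMI and −0.34 in hBMSC-CM, against 0.025 and 0.0094 over all genes. Of its mTORC2 subunits, MAPKAP1 had −0.15 ± 0.039 in RPMI (adjusted p = 0.00107) and was not called in hBMSC-CM (−0.036, adjusted p = 0.429). PRR5 and PRR5L were called in both media at low levels. PRR5 went from 2.73 to 1.68 CPM in RPMI and from 4.40 to 3.47 CPM in hBMSC-CM. PRR5L went from 8.64 to 5.06 CPM and from 8.87 to 6.94 CPM.

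Among the genes of proteins that carry amino acid signals to mTORC1 at the lysosome, calls went both ways. Of 13 Rag GTPase and Ragulator genes with their partners, 6 rose and 4 fell in RPMI, and 4 rose and 2 fell in hBMSC-CM, which is 46.2% and 30.8%, and 30.8% and 15.4%, of the list. With upper-quartile factors 7 rose and 1 fell in RPMI, and with library sizes alone 6 rose and 1 fell there and 7 rose and 1 fell in hBMSC-CM. FNIP1, a partner of folliculin, rose by 0.74 ± 0.046 in RPMI (adjusted p = 3.47e-12) and by 0.30 ± 0.048 in hBMSC-CM (adjusted p = 1.48e-05). FNIP2 went the other way, with −0.67 ± 0.076 in RPMI (adjusted p = 5.46e-08) and −0.30 ± 0.075 in hBMSC-CM (adjusted p = 0.00138). Of 11 genes of GATOR1, GATOR2 and KICSTOR, which relay amino acid supply to the Rag GTPases, 2 rose and 5 fell in each medium, and in hBMSC-CM 3 rose and 4 fell with upper-quartile factors and 4 rose and 4 fell with library sizes alone. SEH1L, a GATOR2 subunit that is also a nucleoporin, went from 111.2 to 33.8 CPM in RPMI (−1.72 ± 0.048, adjusted p = 5.20e-18) and from 120.0 to 78.2 CPM in hBMSC-CM (−0.62 ± 0.045, adjusted p = 1.66e-10).

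Sensors of nutrients and stress, which hold mTORC1 back or report on amino acids, had 7 of 12 tested genes higher and 2 lower in RPMI, and 6 higher and 4 lower in hBMSC-CM, or 8 higher and 3 lower there with library sizes alone. SESN3, a sestrin, went from 19.7 to 73.1 CPM in RPMI (1.895 ± 0.057, adjusted p = 1.79e-17) and from 11.8 to 24.6 CPM in hBMSC-CM (1.05 ± 0.067, adjusted p = 2.16e-11). SAMTOR, the S-adenosylmethionine sensor, rose by 1.21 ± 0.091 and by 0.63 ± 0.10. DDIT4, which encodes the mTORC1 inhibitor REDD1, had a different pattern from DEPTOR, TSC1 and TSC2. It fell with quizartinib, from 89.2 to 59.3 CPM in RPMI and from 246.3 to 203.3 CPM in hBMSC-CM. Against RPMI, its level in hBMSC-CM was higher by 1.47 ± 0.046 with vehicle (adjusted p = 3.54e-15) and by 1.78 ± 0.047 with quizartinib (adjusted p = 1.24e-17).

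Of 16 growth factor inputs to the TSC complex, 7 rose and 4 fell in RPMI, and 8 rose and 4 fell in hBMSC-CM, which is 43.8% and 25.0%, and 50.0% and 25.0%, of the list. Under upper-quartile factors and under library sizes alone 10 rose and 3 fell in RPMI, and in hBMSC-CM 9 rose and 2 or 1 fell. Of 23 tested substrates and translational effectors, 13 rose and 8 fell in RPMI, and 11 rose and 7 fell in hBMSC-CM. EIF4EBP1, the translation repressor that mTORC1 phosphorylates, went from 120.3 to 30.1 CPM in RPMI (−1.999 ± 0.058, adjusted p = 1.03e-17) and from 152.2 to 73.8 CPM in hBMSC-CM (−1.04 ± 0.054, adjusted p = 8.23e-13). EIF4G1, the scaffold of the cap-binding complex, went from 904.1 to 308.5 CPM in RPMI and from 983.2 to 639.8 CPM in hBMSC-CM. PDCD4, a repressor of the helicase EIF4A that S6 kinase marks for degradation, rose by 1.59 ± 0.047 in RPMI and 0.87 ± 0.048 in hBMSC-CM. The lysosomal regulator TFEB rose by 1.01 ± 0.051 and 0.29 ± 0.054, and ULK1, the kinase that starts autophagy, by 0.94 ± 0.086 and 0.23 ± 0.093. The rise of ULK1 in hBMSC-CM (adjusted p = 0.0352) was lost with the filterByExpr filter and without replicates 2 or 3 of either hBMSC-CM group, where it lay between 0.16 and 0.21.

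**Figure D5:**
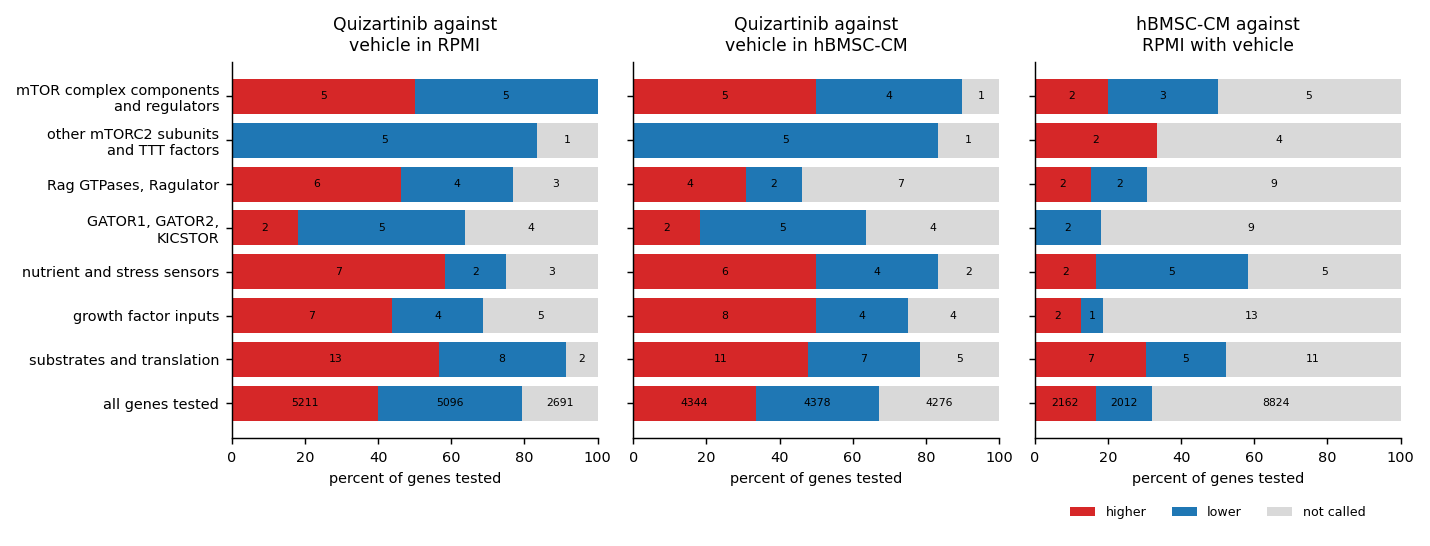
Share of the tested genes of each list that were higher, lower or not called in 3 comparisons, in percent, with the number of genes in each part of a bar. The bottom bar gives all 12998 genes tested, and the other mTORC2 subunits and TTT factors have 5 of 6 genes lower with quizartinib in both media and none higher.

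Between the media, 32.1% of all genes tested were called with vehicle and 69.8% with quizartinib, and the counts of these lists were also lower with vehicle. In hBMSC-CM against RPMI, 2 of 6 mTORC2 and TTT genes were higher, 2 of 13 Rag and Ragulator genes were higher and 2 lower, and 2 of 11 GATOR and KICSTOR genes were lower. Of the sensors 2 were higher and 5 lower, of the growth factor inputs 2 higher and 1 lower, and of the substrates and effectors 7 higher and 5 lower. Several of these counts rest on 1 library or on the scaling. The mTORC2 and TTT count was 1 without replicates 1 or 3 of RPMI vehicle or 2 or 3 of hBMSC-CM vehicle, and also with upper-quartile factors, library sizes alone or no filter. The Rag and Ragulator count was 2 without replicate 2 of RPMI vehicle or of hBMSC-CM vehicle. The GATOR and KICSTOR count was 0 without replicate 3 of RPMI vehicle, 1 without replicate 3 of hBMSC-CM vehicle and 4 without replicate 1 of hBMSC-CM vehicle. That of the growth factor inputs was 1 without replicate 1 of RPMI vehicle, and their balance turned to 1 higher and 4 lower with upper-quartile factors and to 2 higher and 3 lower with library sizes alone. With quizartinib the same lists had 4 and 0, 4 and 5, and 4 and 2 genes higher and lower in that order, and 2 and 8, 1 and 9, and 7 and 12 for the sensors, inputs and effectors.

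Over the 12 libraries, log2 CPM of TSC1 and TSC2 had a Pearson r of 0.98, of RICTOR and DEPTOR 0.97, and of DEPTOR and RHEB −0.97. MTOR had 0.945 with MLST8 and 0.466 with RPS6KB1. Of all genes tested, those most like MTOR were RPRD1B (r = 0.986), EED (0.980) and RANBP3 (0.979), and those most like DEPTOR, the member with the largest interaction, were APH1B, DHTKD1 and ANKRD18B (0.997 each). These points share 4 treatment groups and the library they came from, so the values describe likeness of pattern across these 12 libraries.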

How the data were processed

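Counts of 12 libraries were used, 3 per group, with groups and replicate numbers from the labels. The authors trimmed reads with BBDuk, aligned them with STAR 2.6.0a to human Ensembl hg38, summed identifiers with a common gene name, and deposited the raw counts without normalization. Reads that map to several places cannot be reassigned from such counts.

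Genes with a mean count and a mean CPM of at least 1 were kept. TMM factors were used, and the test was the quasi-likelihood test of edgeR 4.0.16 (R 4.3.3), in 1 fit with 4 group means and 8 residual degrees of freedom. P-values were two-sided, adjusted by the Benjamini-Hochberg method over all 12998 genes tested, and called under 0.05. Errors are SE of log2 fold changes or SD of CPM. The interaction is the log2 fold change in hBMSC-CM minus that in RPMI. Ratios were tested with exact permutation tests. The script was tested on simulated data. Libraries of a group differed by more than sampling noise.

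The members and gene lists were chosen with earlier results of these data known. All members are given with each library's value. Genes of other lists were named among the 3 largest called changes in each direction per comparison, though not all are given or can be reported here. MAPKAP1 and RPS6KB2 were named outside this rule. CASTOR1, DDIT4L, PRKAA2 and EIF4EBP3 did not pass the filter, and KICS2 was not analysed here. Coordinates and lengths came from GENCODE, which is another release than the authors used, and promoters from RefSeq. Alternatives were other scalings (DESeq2 1.42.0 size factors, upper-quartile factors, library size), the DESeq2 Wald test, limma-voom (limma 3.58.1), other filters, a replicate block, fewer groups, a threshold of 0.01, and each library left out.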

Additional observations from a re-analysis of the deposited data

Results flagged for a closer look

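The quizartinib response differed between hBMSC-CM and RPMI by the interaction term for 7 of the 10 genes, which is what set them apart for a closer look. The interaction (log2 fold change in hBMSC-CM minus that in RPMI) was −1.08 for DEPTOR, −0.47 for AKT1S1, −0.34 for RICTOR, −0.31 for TSC1 and −0.25 for TSC2, all of which rose in both media. It was 0.35 for RHEB and 0.39 for RPS6KB1, which fell in RPMI. The interaction was called for 45.2% of all genes tested.

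The interaction was also called for other pathway genes named above. The rule that named them took the largest called changes of every comparison, the interaction included, so these calls follow from the choice and are given as a description. Among genes that fell with quizartinib it was 0.72 for TTI1, 0.66 for TELO2, 0.40 for PRR5L, 0.37 for FNIP2, 1.10 for SEH1L, 0.96 for EIF4EBP1, 0.93 for EIF4G1 and 0.31 for DDIT4. Among genes that rose it was −0.45 for FNIP1, −0.85 for SESN3, −0.58 for SAMTOR, −0.72 for PDCD4, −0.73 for TFEB and −0.71 for ULK1. Genes of the same lists that went otherwise, chosen after their values were seen, were RPS6KB2, RRAGB and SESN2. The interaction was not called for RPS6KB2, with 0.0020 (adjusted p = 0.987), or for the Rag GTPase gene RRAGB, with −0.016 (adjusted p = 0.921). Of the mTORC2 subunits named above, it was also not called for MAPKAP1 (0.12, adjusted p = 0.0835) or PRR5 (0.35, adjusted p = 0.169). The sestrin gene SESN2 had the larger response in hBMSC-CM, with log2 fold changes of −0.11 in RPMI (adjusted p = 0.104) and −0.61 in hBMSC-CM (adjusted p = 6.20e-08) and an interaction of −0.50 (adjusted p = 0.000144). Groups of 3 libraries were not tested for single libraries that stand apart. In hBMSC-CM quizartinib, mitochondrially encoded genes took 0.683% of the counts in replicate 1, against 0.947% and 0.939% in replicates 2 and 3. In hBMSC-CM vehicle they took 0.613% in replicate 1, against 0.462% and 0.458%.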

How the results depend on the processing

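The number of members called stayed at 10 under all alternatives for quizartinib in RPMI, and lay between 8 and 10 in hBMSC-CM, between 8 and 10 for hBMSC-CM against RPMI with quizartinib, between 5 and 6 with vehicle and between 6 and 7 for the interaction. Settings that tested the same 12998 genes at 0.05 called 9950 to 10483 of them for quizartinib in RPMI and 8148 to 8894 in hBMSC-CM. For hBMSC-CM against RPMI they called 8478 to 9208 with quizartinib and 3278 to 4338 with vehicle. For the interaction they called 5406 to 5986. Of 1090 log2 fold changes of members under alternatives, 1045 kept their direction and side of the threshold, 10 lost the call, 10 gained it and 25 changed sign, all 25 from values that were not called. RPS6KB1 in hBMSC-CM had −0.0065 with DESeq2 size factors, −0.0064 with the DESeq2 Wald test, −0.025 without a filter and −0.017 with filterByExpr, and between −0.022 and 0.027 without single libraries. MTOR with vehicle had −0.0083 with upper-quartile factors and between −0.020 and 0.041 without single libraries. The interaction of MLST8 was −0.0032 with DESeq2 size factors, −0.014 with upper-quartile factors and −0.0029 with the DESeq2 Wald test, and between −0.092 and 0.091 without single libraries, and that of RPTOR was −0.0070 with upper-quartile factors and between −0.035 and 0.060. The interaction of RPS6KB2 was −0.0061 with DESeq2 size factors, −0.017 with upper-quartile factors and −0.0064 with the DESeq2 Wald test, and between −0.051 and 0.072 without single libraries, and that of RRAGB was 0.056 without a filter and 0.017 with filterByExpr, and between −0.062 and 0.020. SESN2 was called in RPMI without a filter (−0.22), with filterByExpr (−0.17) and without replicate 3 of RPMI quizartinib (−0.17). The cause was not tested. Upper-quartile factors shifted the median over all tested genes by 0.10 on the log2 scale for quizartinib in RPMI, and library sizes alone by 0.10 in hBMSC-CM. Without single libraries the quizartinib difference of log2 RPTOR to RICTOR lay between −0.97 and −0.84 in RPMI and between −0.61 and −0.52 in hBMSC-CM.

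Same-numbered libraries did not visibly deviate together, with correlations between −0.23 and 0.098. The labels do not say whether same-numbered samples were set up together, and this check cannot exclude it. With a replicate block 10, 9, 9, 5 and 7 members were called in the 5 comparisons, as without it. Over all 12998 genes the block called 10224, 8611, 8962, 3953 and 5679, in place of 10307, 8722, 9076, 4174 and 5881. DEPTOR held the fewest reads of the members except in RPMI with quizartinib, and its log2 fold changes had the largest SE except in hBMSC-CM against RPMI with quizartinib.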
